A study of Homo sapiens with 10 samples.

Results

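The genes described here are 10 enzymes of amino acid synthesis, given as a list, chosen with earlier results of these data known, and read by symbol: ASNS, PHGDH, PSAT1, PSPH, SHMT2, MTHFD2, ALDH18A1, PYCR1, CTH and CBS. All 10 were among the 20535 genes listed for each library, and all 10 passed the filter of a mean of at least 1 TPM that left 10127 genes for testing. TPM is a relative abundance per gene that is corrected for gene length, so levels may be compared between genes. RNA-seq was performed in K562 cells, an erythroid-megakaryocytic leukemia line, in 5 groups of 2 libraries. The sgGal4 group expressed a nontargeting sgRNA. The other 4 groups expressed the pool of sgRNAs to HS2, an enhancer of the β-globin cluster, and 1 of 4 effectors. These were dCas9-KRAB (K), dCas9-LSD1 (L), dCas9-LSD1 joined by MCP-KRAB (enCRISPRi-LK, here LK) or dCas9-KRAB joined by MCP-LSD1 (enCRISPRi-KL, here KL). The study's methods describe induction of dCas9 by doxycycline (Dox) for cells with targeting and nontargeting sgRNAs alike. KRAB and LSD1 are a repressor domain and a histone demethylase, and MCP is a protein that binds hairpins in the sgRNA. According to those methods, cells with targeting or nontargeting sgRNAs were sorted pools of transduced cells with Tet-On effectors. The dCas9 fusion carried by the sgGal4 cells is not given in the labels used here. The study's legend for its RNA-seq plot names nontransduced cells as the comparator, whereas the labels name sgGal4. The question put to these 10 genes is whether their RNA differed between each HS2-targeted group and sgGal4.

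Asparagine synthetase (ASNS) makes asparagine from aspartate with the nitrogen of glutamine. PHGDH, PSAT1 and PSPH convert a glycolytic intermediate into serine in 3 steps. SHMT2 and MTHFD2 work in mitochondria, where serine is split to glycine and its carbon enters the folate cycle. ALDH18A1 and PYCR1 make proline from glutamate. CBS and CTH carry the sulfur of homocysteine to cysteine, the transsulfuration route. Many of these genes are known targets of ATF4, the transcription factor translated when the kinases of the integrated stress response phosphorylate eIF2, which binds composite elements of an ATF site and a C/EBP site.

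Promoter sequence was available from RefSeq for 7 of the 10 genes, as windows from 250 bases before to 50 bases after a start site (GRCh38.p14 table). Some genes have more than 1 window, each with its own start site. The letters TGATGNAA of the ATF and C/EBP composite element were searched on both strands. They occurred in a window of 1 of these genes, ASNS, 68 bases before the RefSeq start of that window. The same letters occurred in 3.62% of all 35116 windows and in a window of 4.46% of all 27305 genes. Outside the 10 genes they were also found 209 bases before the RefSeq start of CHAC1, which encodes an enzyme that degrades glutathione. The core of the antioxidant response element, TGACNNNGC, was held by 13.3% of all windows and by a window of 16.1% of all genes. It occurred in a window of CBS, 83 bases before the RefSeq start, and of MTHFD2, 6 bases after it. The composite and antioxidant matches did not overlap, and a match of letters is a description of the window. The 250 bases before the start are shown for ASNS and CTH, the members with the largest differences from sgGal4, and for CHAC1, with the composite element in capitals. They were read 5′ to 3′ on the strand of the gene in GRCh37. The ASNS stretch is chr7:97501721-97501970 on the minus strand, the CTH stretch is chr1:70876701-70876950 on the plus strand and the CHAC1 stretch is chr15:41245419-41245668 on the plus strand. These RefSeq start sites differ from the ends of the genes in the GENCODE annotation. The CHAC1 stretch lies within its annotated gene (41245160 to 41248710), and those of ASNS and CTH overlap their genes in part.
ASNS: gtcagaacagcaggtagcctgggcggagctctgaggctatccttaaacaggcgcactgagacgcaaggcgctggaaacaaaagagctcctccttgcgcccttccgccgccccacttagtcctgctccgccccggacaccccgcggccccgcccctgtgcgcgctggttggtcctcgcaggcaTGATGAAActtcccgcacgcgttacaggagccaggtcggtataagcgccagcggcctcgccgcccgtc
CTH: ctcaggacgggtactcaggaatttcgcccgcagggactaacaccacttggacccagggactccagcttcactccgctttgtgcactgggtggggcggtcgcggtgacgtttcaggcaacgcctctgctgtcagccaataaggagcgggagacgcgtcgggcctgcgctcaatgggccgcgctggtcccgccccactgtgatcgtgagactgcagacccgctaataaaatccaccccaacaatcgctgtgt
CHAC1: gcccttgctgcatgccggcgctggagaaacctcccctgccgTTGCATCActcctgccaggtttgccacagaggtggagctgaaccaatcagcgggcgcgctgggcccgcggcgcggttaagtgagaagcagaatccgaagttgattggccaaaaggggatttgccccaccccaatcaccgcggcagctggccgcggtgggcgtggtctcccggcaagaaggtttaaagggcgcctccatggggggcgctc

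Several features of the libraries bear on every value. The listed TPM summed to 790470 to 844414 per library, and the number of reads is unknown. The 13 genes of the mitochondrial genome took 53.6% of the listed TPM in sgGal4 replicate 1 and 39.9% to 46.6% in the other libraries, and all 10 enzymes had a lower TPM in sgGal4 replicate 1 than in replicate 2, as did 74.5% of all genes tested. HBE1, a globin gene controlled by HS2, was at 1376 and 1620 TPM in sgGal4 and at 361 to 1019 TPM in the other 8 libraries. The globin genes HBG1 and HBG2 were below sgGal4 in LK and KL but not in every group. HBG1 was at 118 and 99.4 TPM in sgGal4, 131.6 and 131.7 in K and 109.7 and 97.4 in L. HBG2 was at 941 and 673 TPM in sgGal4, 698 and 581 in K and 554 and 519 in L. KDM1A, the gene of LSD1, was at 84.2 and 105 TPM in the libraries labelled L and at 25.2 to 33.5 TPM in the other 8. ZNF10, the source of a KRAB domain in common use, was at 0.97 to 3.8 TPM in the libraries labelled sgGal4 and K, 31.5 and 36.8 TPM in LK, 128 and 136 TPM in L and 360 and 365 TPM in KL. These levels do not follow the labels in every group, so group names below mean the libraries labelled so. Of 12 markers of K562, 10 were at 5 TPM or more in every library, and GATA1 was listed at 0 throughout, which in TPM may be a failed estimate. Of 6 T cell markers, CD3E, CD2 and LCK were listed at 0 in all libraries, while the summed list, mostly CD3D, ran from 27.3 to 34.9 TPM in sgGal4, 9.71 to 14.8 in K, 3.16 to 10.7 in L, 10.0 to 28.8 in LK and 2.33 to 10.9 in KL. The summed markers of kidney-derived cells and of B cells stayed at or below 1.98 TPM.

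In sgGal4 the 10 enzymes spanned about an order of magnitude in TPM. CBS (121 ± 33.5, SD, n = 2), SHMT2 (113 ± 34.6) and MTHFD2 (106 ± 37.1) were highest, and their libraries overlapped. ASNS followed at 77.3 ± 3.57 TPM, overlapping only with MTHFD2. PYCR1 (49.5 ± 17.7) and PHGDH (43.3 ± 7.92) overlapped with each other, as did PSAT1 (29.8 ± 2.34), CTH (20.02 ± 13.5) and PSPH (18.3 ± 5.26) with a neighbour in the order. ALDH18A1 was lowest at 10.2 ± 2.40 TPM. The plot of TPM by library shows that the spread between the sgGal4 libraries was small for ASNS and PSAT1 and wide for CTH.

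**Figure D1:**
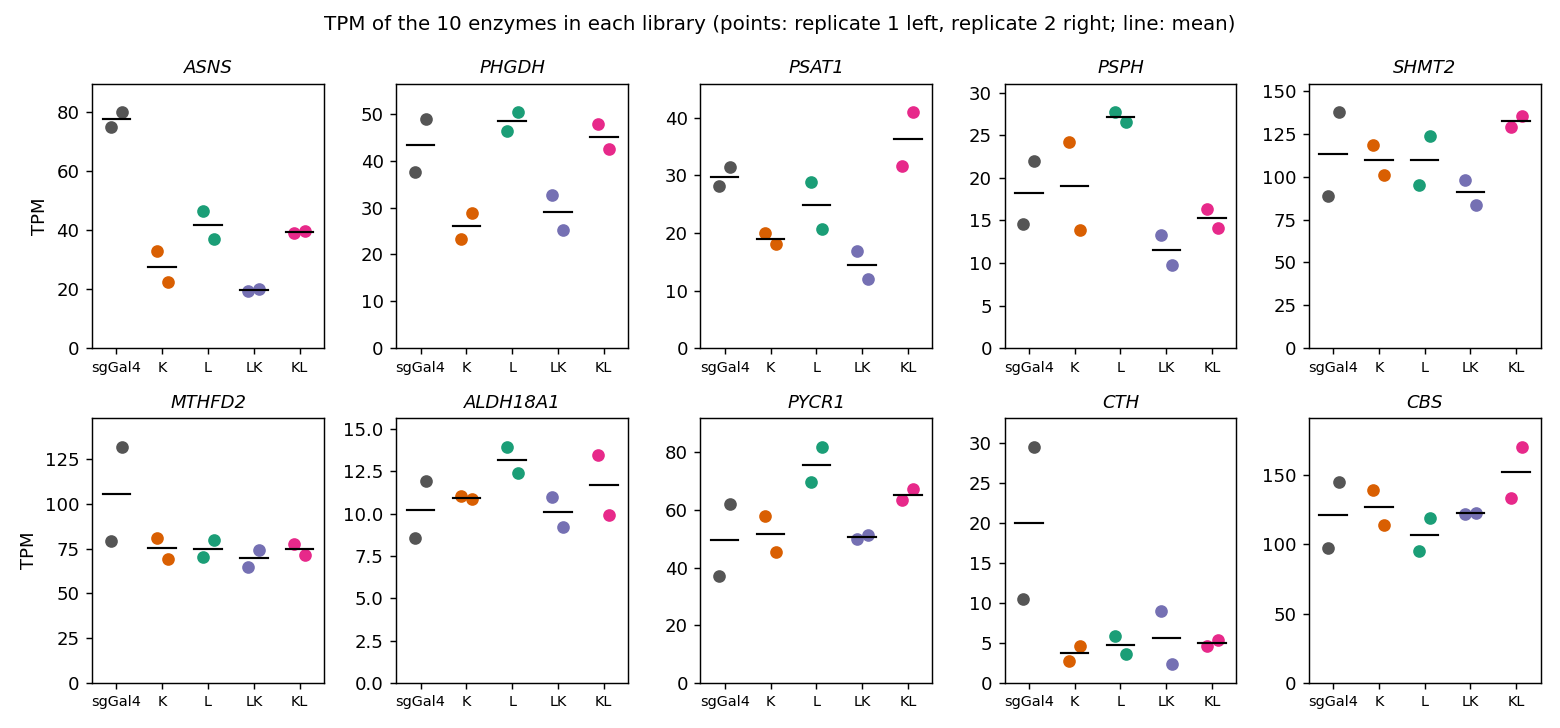
TPM (linear axis from 0) of each enzyme in the 10 libraries, by group, with 1 point per library and a line at the group mean. ASNS lay at 74.8 and 79.9 TPM in sgGal4 and at 19.4 to 46.4 TPM in the other 8 libraries, whereas CBS and SHMT2 overlapped between sgGal4 and every other group.

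ASNS was lower in all 4 HS2-targeted groups, and the difference passed the threshold in K and LK. The gene lies on chromosome 7 from 97480989 to 97501854 (GRCh37, minus strand, 13 exons). Its TPM was 74.8 and 79.9 in sgGal4, 32.9 and 22.3 in K, 46.4 and 36.8 in L, 19.4 and 20.1 in LK and 39.0 and 39.6 in KL. The groups therefore did not overlap with sgGal4, and LK was the lowest at 25.6% of the sgGal4 mean, below K (35.6%), KL (50.9%) and L (53.8%). On the log2(TPM + 1) scale, on which all fold changes here are given and which understates the change of low genes, the difference from sgGal4 was -1.91 ± 0.23 (SE) in LK, with an adjusted p of 0.00139 by limma with Benjamini-Hochberg adjustment over all genes tested. In K it was -1.48 ± 0.23 (adjusted p = 0.00679, limma). The values in L, -0.89 ± 0.23 (adjusted p = 0.102, limma), and KL, -0.96 ± 0.23 (adjusted p = 0.0639, limma), missed the threshold of 0.05. Over the mean of the 4 groups the difference was -1.31 ± 0.18 (adjusted p = 0.00156, limma), lower in 8 of 8 libraries. Without K replicate 2 the K value became -1.21 with an adjusted p of 0.0887 (limma), and without K replicate 1 or 2 the standard error was 0.21 and KL passed with adjusted p of 0.0475 and 0.0449 (limma). The LK value ran from -2.07 to -1.91 over the 9 other settings, removal of the mitochondrial genes among them, and was called in each. The T cell list, with CD3E, CD2 and LCK at 0, was also lower in 7 of the 8 targeted libraries than in either sgGal4 library, and its part in the result was not tested. As K562 RNA was measured in bulk, fewer expressing cells and less RNA per cell cannot be told apart for this or any gene below.

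The fitted size of the ASNS difference varied among the targeted groups, but no pair of them passed the threshold, so their order is not established. Neighbours in the order from high to low were L and KL, which differed by -0.07 (KL against L, 95% confidence interval -0.57 to 0.43), KL and K, which differed by 0.52 (KL against K, 0.02 to 1.02, adjusted p = 0.487 by limma), and K and LK, which differed by -0.43 (LK against K, -0.93 to 0.06). The widest distances were LK against L, -1.03 (-1.53 to -0.53, adjusted p = 0.152, limma), and LK against KL, -0.96 (-1.46 to -0.46, adjusted p = 0.122, limma). As a share of the summed TPM of the 10 enzymes in the same library, a measure that the total of a library does not move, ASNS made up 15.7% and 11.4% in sgGal4, 6.42% and 5.20% in K, 9.29% and 6.63% in L, 4.44% and 4.90% in LK and 7.01% and 6.64% in KL. The shares of sgGal4 lay above those of all other libraries.

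Counted over the 10 enzymes, ASNS was the only one called in any of the 4 groups. The calls were 1 of 10 in K, where 1.62% of all genes tested passed in either direction, 0 of 10 in L (0.869% of all genes), 1 of 10 in LK (2% of all genes) and 0 of 10 in KL (1.36% of all genes). At an unadjusted p under 0.05 by limma, 4 of 10 were lower in K (6.25% of all genes were) and 2 in L (6.46%). In LK it was 5 (6.07%) and in KL 2 (6.32%). PYCR1 alone was higher, in L, where 12.8% of all genes passed that limit in either direction and 642 of 10127 as higher. The median difference of the 10 enzymes on the log2 scale was -0.23 in K, -0.09 in L, -0.56 in LK and 0.12 in KL, beside 0.06, 0.00, 0.03 and 0.05 over all genes tested. Both libraries of a group lay below both of sgGal4 for 4 members in K, 2 in L, 6 in LK and 3 in KL. Over the 10127 genes tested this held for 1859, 2083, 2131 and 1883, so it was common. Both lay above for 0, 3, 0 and 2 members, and for 2557, 2103, 2500 and 2459 of all genes. The 4 comparisons share the same 2 sgGal4 libraries, so they are not independent of each other. Over the mean of the 4 groups, 2 of 10 were called, both lower, while 3.26% of all genes passed in either direction and 1.48% as lower. The calls were ASNS and CTH, which were also the members with all 8 targeted libraries below both sgGal4 libraries (5.29% of all genes had that pattern).

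**Figure D2:**
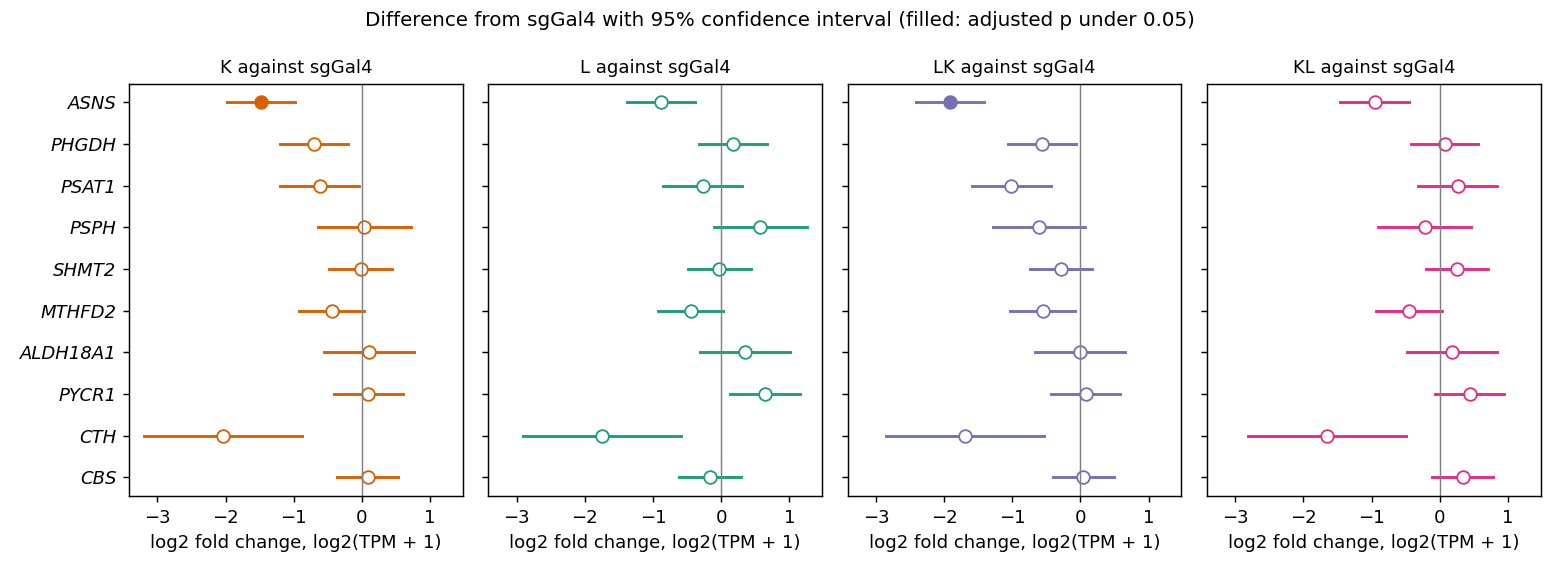
Difference from sgGal4 on the log2(TPM + 1) scale for each enzyme (rows) in the 4 comparisons (panels), with the 95% confidence interval of the limma fit and filled points where the adjusted p was under 0.05. The filled points are ASNS in K (-1.48) and LK (-1.91), and the widest intervals are those of CTH, from -3.19 to -0.87 in K.

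None of the serine synthesis enzymes was called, and the values nearest to the threshold were those of PSAT1. PHGDH, which catalyses the first step, had 37.7 and 48.9 TPM in sgGal4, 23.3 and 28.9 in K, 46.5 and 50.4 in L, 32.8 and 25.2 in LK and 47.8 and 42.6 in KL. K and LK lay below sgGal4 without overlap, and L and KL overlapped with it. The difference was -0.71 ± 0.23 in K (adjusted p = 0.152, limma) and -0.56 ± 0.23 in LK (adjusted p = 0.279), against 0.17 ± 0.23 in L and 0.07 ± 0.23 in KL.

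PSAT1, the aminotransferase of the second step on chromosome 9 (80912041 to 80945009, GRCh37, plus strand), had 28.1 and 31.4 TPM in sgGal4, 20.04 and 18.02 in K, 28.9 and 20.7 in L, 16.8 and 11.96 in LK and 31.6 and 41.0 in KL. LK was at 48.3% of the sgGal4 mean and KL at 122%, on opposite sides of sgGal4 and without overlap with it. Of all 10127 genes tested, 2131 were likewise apart below in LK and 2459 apart above in KL. The fitted difference was -1.02 ± 0.27 in LK (adjusted p = 0.0767, limma) and 0.27 ± 0.27 in KL (95% confidence interval -0.31 to 0.85). Between the dual effectors, LK against KL gave -1.28 (-1.86 to -0.70, adjusted p = 0.0630, limma), the smallest adjusted p of any member in the 6 pairs of targeted groups. With the mitochondrial genes removed and the rest rescaled, PSAT1 passed in LK (-1.17, adjusted p = 0.0412, limma), and the pair LK against KL also passed.

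PSPH, the phosphatase that releases serine, had 14.5 and 22.0 TPM in sgGal4, 24.2 and 13.9 in K, 27.7 and 26.6 in L, 13.3 and 9.78 in LK and 16.3 and 14.1 in KL. L was above and LK below the sgGal4 libraries, and the replicates of K differed by more than those of any other group. Its differences from sgGal4 ran from -0.61 ± 0.32 in LK (adjusted p = 0.413, limma) to 0.58 ± 0.32 in L (adjusted p = 0.479). The mean of LK and KL was lower than the mean of K and L by -0.72 (95% confidence interval -1.20 to -0.24), at an unadjusted p of 0.00622 and an adjusted p of 0.424 (limma). Of the transcript of PSPH, 1.58% of its 75-base windows also occur in other genes, among them its pseudogene PSPHP1, and reads from such windows have no single location.

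The mitochondrial one-carbon enzymes were not called in any group. SHMT2, which transfers a carbon of serine to folate, had 88.9 and 138 TPM in sgGal4, 119 and 101 in K, 95.3 and 124 in L, 98.4 and 83.8 in LK and 129 and 135 in KL. No group stood apart from sgGal4, whose own libraries spanned the values of 7 of the 8 others, and the differences ran from -0.28 ± 0.21 in LK to 0.25 ± 0.21 in KL. MTHFD2, which oxidises the carbon unit carried by folate, had 79.4 and 132 TPM in sgGal4, 81.1 and 69.1 in K, 70.0 and 79.7 in L, 64.8 and 74.2 in LK and 77.7 and 71.6 in KL. Its 4 group means were close to each other, at 65.8% to 71.1% of the sgGal4 mean, and 6 of 8 libraries were below both sgGal4 libraries. The mean difference was -0.47 ± 0.18 (adjusted p = 0.181, limma). It was -0.84 without sgGal4 replicate 1 and -0.11 without sgGal4 replicate 2, so the value turned on which control was kept. With the mitochondrial genes removed it was -0.58 (adjusted p = 0.0499, limma).

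Among the 20 other genes of serine, glycine and folate metabolism, 16 were tested, and the called gene was ALDH1L2, the mitochondrial enzyme that oxidises formyl folate. It had 10.2 and 12.2 TPM in sgGal4, 1.85 and 3.57 in K, 5.94 and 4.63 in L, 1.23 and 3.47 in LK and 3.27 and 3.28 in KL. All 8 targeted libraries were below both controls. It fell in LK (-1.95 ± 0.43, adjusted p = 0.0327, limma) and over the mean of the 4 groups (-1.54 ± 0.34, adjusted p = 0.0245), and the value in K was -1.75 ± 0.43 (adjusted p = 0.0567). The LK call was lost without either sgGal4 or either LK library (adjusted p 0.0850 to 0.286, limma), and the mean call without sgGal4 replicate 1 or 2 (adjusted p = 0.150 and 0.156). The LK call was also lost with no filter (0.111), no mean-variance trend (0.0916) and a fit of only the compared groups (0.0897), and the mean call with no filter (0.0839, all limma). The cytosolic counterparts were not called. SHMT1 had 8.72 and 10.6 TPM in sgGal4 and 10.6 to 27.5 TPM in the targeted libraries, with differences of 0.33 to 0.99. MTHFD1 differed from sgGal4 by -0.10 to 0.64 and MTHFD2L, a second mitochondrial form, by -0.63 to 0.07. The median of the 16 genes was -0.02 in K, 0.05 in L, 0.10 in LK and -0.02 in KL.

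Neither proline enzyme was called, and the fitted differences were near or above 0. ALDH18A1, which makes the first intermediate from glutamate, had 8.54 and 11.9 TPM in sgGal4, 11.02 and 10.9 in K, 14.0 and 12.4 in L, 10.98 and 9.23 in LK and 13.5 and 9.89 in KL. The differences ran from -0.01 ± 0.31 in LK to 0.35 ± 0.31 in L, and the interval in LK was -0.67 to 0.66. PYCR1, the mitochondrial reductase of the last step, had 37.02 and 62.0 TPM in sgGal4, 58.0 and 45.4 in K, 69.6 and 81.9 in L, 49.8 and 51.2 in LK and 63.6 and 67.1 in KL. L and KL were above both sgGal4 libraries, and K and LK lay between them. The difference in L was 0.64 ± 0.24 (unadjusted p = 0.0169, adjusted p = 0.257, limma) and in KL 0.44 ± 0.24 (adjusted p = 0.430). PYCRL, the cytosolic form now named PYCR3, differed by 0.41 to 1.09 from 3.73 and 6.10 TPM in sgGal4, with an adjusted p of 0.171 in K (limma). Of 11 further genes of proline, glutamate and ornithine, 9 were tested and 0 were called by limma in any group, while at an unadjusted p under 0.05 1 was lower and 3 were higher in K (15.6% of all genes passed in either direction), 0 and 3 in L (12.8%), 0 and 1 in LK (14.2%) and 1 and 1 in KL (14.7%).

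In transsulfuration, CTH was low in all targeted libraries and CBS was not. CTH, cystathionine gamma-lyase, which releases cysteine, lies on chromosome 1 from 70876901 to 70905534 (GRCh37, plus strand, 12 exons). It had 10.5 and 29.6 TPM in sgGal4, 2.73 and 4.63 in K, 5.83 and 3.60 in L, 8.96 and 2.34 in LK and 4.63 and 5.35 in KL. Every targeted library was below both controls, but the controls differed from each other 2.81-fold. The group means were 18.4% (K), 23.5% (L), 28.2% (LK) and 24.9% (KL) of the sgGal4 mean. The fitted differences were -2.03 ± 0.54 in K (adjusted p = 0.0764, limma), -1.74 ± 0.54 in L (0.172), -1.70 ± 0.54 in LK (0.148) and -1.65 ± 0.54 in KL (0.162). Among the targeted groups CTH differed by at most 0.38 (KL against K, 95% confidence interval -0.78 to 1.54).

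Over the mean of the 4 groups CTH fell by 1.78 ± 0.43 on the log2 scale (adjusted p = 0.0382, limma), lower in 8 of 8 libraries. That call was held by few settings. It was lost without sgGal4 replicate 1 (-2.48, adjusted p = 0.0505, limma) and without sgGal4 replicate 2 (-1.08, adjusted p = 0.372), and without K replicate 1 or 2, L replicate 2, LK replicate 2 or KL replicate 1 or 2 (adjusted p 0.0517 to 0.0670). It was also lost with a pseudocount of 0.1 (adjusted p = 0.0511), with no filter on low values (0.159) and with no mean-variance trend (0.128). The direction was the same in each.

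CBS, cystathionine beta-synthase, which joins homocysteine to serine, had 97.8 and 145 TPM in sgGal4, 139.7 and 114 in K, 95 and 119 in L, 122 and 123 in LK and 133 and 171 in KL. No group was apart from sgGal4, and the differences were -0.16 ± 0.21 in L to 0.34 ± 0.21 in KL, with an interval of -0.41 to 0.49 in LK. CTH was 10.7% and 20.4% of the CBS level in sgGal4, 1.95% and 4.05% in K, 6.14% and 3.03% in L, 7.35% and 1.90% in LK and 3.47% and 3.14% in KL. This ratio within a library was thus above 10% in the controls and below it in the 8 others.

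**Figure D3:**
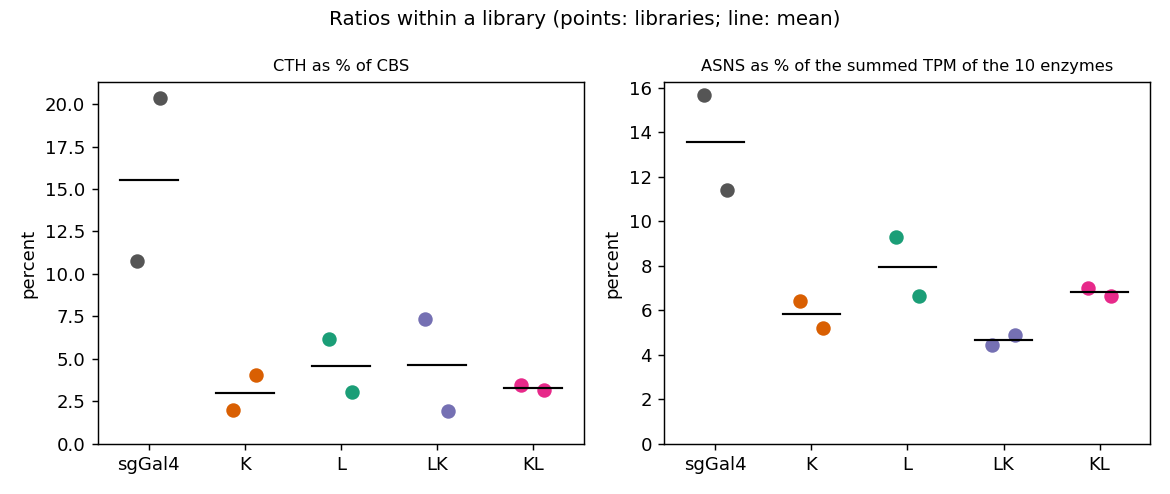
Left, CTH as a percent of CBS in TPM; right, ASNS as a percent of the summed TPM of the 10 enzymes. Each point is a library and each line a group mean, on linear axes from 0. The sgGal4 libraries, at 10.7% and 20.4% on the left and 15.7% and 11.4% on the right, are above all other libraries in both panels.

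Of 17 further genes of the methionine cycle, cysteine and glutathione, 16 were tested and CHAC1 was called in each comparison with sgGal4, although its calls in L and KL did not hold under every setting. It had 16.7 and 26.8 TPM in sgGal4, 1.81 and 1.83 in K, 2.43 and 4.77 in L, 1.19 and 1.68 in LK and 6.33 and 3.70 in KL. It fell in all 4 groups, with differences of -2.97 ± 0.42 in K (adjusted p = 0.00384, limma), -2.32 ± 0.42 in L (0.0190), -3.19 ± 0.42 in LK (0.00180) and -1.92 ± 0.42 in KL (0.0369). The call in K was lost without K replicate 2 (adjusted p = 0.0642, limma), that in L without either sgGal4 or either L library (0.0538 to 0.152), and that in KL without any 1 library of sgGal4, K, LK or KL (0.0545 to 0.273). No filter (adjusted p = 0.0959, limma) and a fit of only the compared groups (0.0503) also ended the call in L. In KL it was ended by a pseudocount of 0.1 (0.0756), no filter (0.108), no trend (0.0527) and a fit of only the compared groups (0.0632), which left 4 of 8 settings with a call. The median of the 16 genes was 0.12 in K, 0.00 in L, 0.01 in LK and 0.14 in KL. Of the 10 other genes of aspartate, alanine and branched-chain amino acids, 8 were tested and 0 were called by limma in any comparison with sgGal4. At an unadjusted p under 0.05, 0 of them passed in K, L and LK, and 2 were higher in KL. Of all genes 15.6%, 12.8%, 14.2% and 14.7% passed in K, L, LK and KL, in either direction.

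The regulators were mostly not called. ATF4 had 124 and 164 TPM in sgGal4, 120.1 and 115 in K, 127 and 127 in L, 86.4 and 94.4 in LK and 129 and 134 in KL. L and KL lay within the sgGal4 range, and LK was the lowest group at -0.66 ± 0.17 (adjusted p = 0.0658, limma). It passed in LK in 4 of 9 other settings, which were the filter at 10 TPM (adjusted p = 0.0389, limma), size factors (0.0246), quantile normalization (0.0170) and removal of the mitochondrial genes (0.0122), and without sgGal4 replicate 1 (-0.86, adjusted p = 0.0383). ATF4 is regulated largely at translation, so its RNA is not a measure of its protein. DDIT3, a transcription factor of the stress response also called CHOP, had 29.6 and 33.8 TPM in sgGal4 and 10.7 to 18.3 TPM in the 8 others. It fell in LK (-1.25 ± 0.28, adjusted p = 0.0380, limma) and over the mean of the 4 groups (-1.09 ± 0.22, adjusted p = 0.0172). The LK call was lost without either library of sgGal4, LK or KL (adjusted p 0.0540 to 0.316, limma) and the mean call without sgGal4 replicate 1 or 2 (0.107 and 0.120). No filter (0.0794), no trend (0.112) and a fit of only the compared groups (0.0897) also ended the LK call. In L, where DDIT3 was not called (-1.27 ± 0.28, adjusted p = 0.0552, limma), 4 of 9 other settings called it. Of 14 regulators tested, DDIT3 was the 1 called, and the median of the list was -0.43 in K, -0.09 in L, -0.38 in LK and -0.19 in KL. At an unadjusted p under 0.05 by limma, 4 of the 14 were lower in K (6.25% of all genes) and 2 in L (6.46%). In LK it was 5 (6.07%) and in KL 3 (6.32%). The number higher was 1 in K, 1 in L, 0 in LK and 1 in KL. The 7 reference genes had 0 calls by limma, with medians of 0.22, 0.09, 0.26 and 0.27. At an unadjusted p under 0.05 by limma, 2 of the 7 passed in K, 0 in L, 1 in LK and 1 in KL, all as higher. Of all genes 15.6%, 12.8%, 14.2% and 14.7% passed in either direction.

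**Figure D4:**
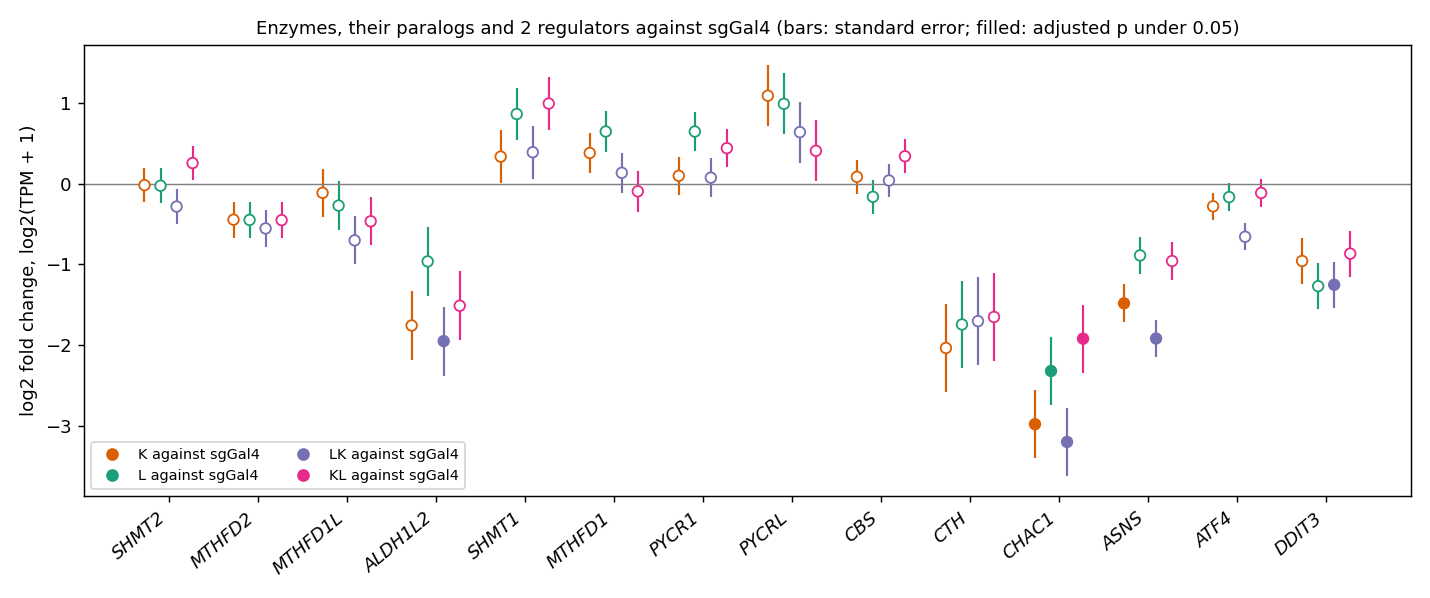
Difference from sgGal4 on the log2(TPM + 1) scale (bars, standard error; filled points, adjusted p under 0.05) for enzymes, paralogs and 2 regulators, coloured by comparison. CHAC1 is filled in all 4 comparisons (-3.19 to -1.92), ALDH1L2 and DDIT3 in LK and ASNS in K and LK, while SHMT2 and CBS lie near 0.

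Libraries labelled with dual effectors (LK and KL) were compared with those labelled with single effectors (K and L). The levels of KDM1A and ZNF10 did not follow these classes. The comparison gave 0 calls of 10 by limma, where 0.0889% of all genes passed. At an unadjusted p under 0.05 it gave 1 member, PSPH (7.45% of all genes). For ASNS the difference was -0.25 (95% confidence interval -0.61 to 0.10), for CTH 0.21 (-0.61 to 1.03) and for PSAT1 0.07 (-0.34 to 0.48). The 6 pairs of targeted groups gave 0 member calls by limma as well. The share of all genes called was 0.0395% for K against L, 0.00987% for LK against K, 0.168% for KL against K, 0.118% for LK against L, 0.276% for KL against L and 0.385% for LK against KL.

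At an unadjusted p under 0.05, 3 members (ASNS, PHGDH and PYCR1) were lower in K than in L. Of all 10127 genes, 8.34% passed in either direction and 329 as lower, and the shares below are for either direction. For LK against K it was 0 members (5.18% of all genes). For KL against K it was 3, ASNS, PHGDH and PSAT1, all higher in KL (9.97%, with 510 genes higher). LK was lower than L in 5 members, which were ASNS, PHGDH, PSAT1, PSPH and PYCR1 (8.15%, with 349 genes lower). In KL against L, PSPH was lower and CBS higher (9.6%). In LK against KL, 4 members were lower, ASNS, PHGDH, PSAT1 and SHMT2 (9.84%, with 535 genes lower). PSPH showed the largest fitted distance from L, at -1.18 in LK (95% confidence interval -1.86 to -0.50, adjusted p = 0.266, limma).

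Across the 10 libraries, Pearson correlations of log2(TPM + 1) between members had a median of 0.36 over 45 pairs and ran from -0.16 to 0.75, with 16 pairs over 0.5. The highest were SHMT2 with CBS (0.75), ASNS with PSAT1 (0.74) and PHGDH with PSAT1 (0.71). The points share groups, libraries and the scaling to a fixed total. The mean of the standardized members was highest in sgGal4 replicate 2 (1.19) and lowest in LK replicate 2 (-1.05), with sgGal4 replicate 1 at -0.37. The 5 other genes with the closest pattern to that mean over 10 libraries were HIGD1A (r = 0.95), PRMT10 (0.95), SLC7A5 (0.94), which encodes a transporter of large neutral amino acids, TIFA (0.93) and MARS (0.92), which encodes the cytosolic methionyl-tRNA synthetase.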

How the data were processed

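RNA-seq of 10 K562 libraries was analysed, 2 per group, grouped by the labels. The authors aligned reads to hg19 with STAR (version 2.5.2b), discarded reads with several locations, and used RSEM for the deposited values, 1 TPM per gene symbol. TPM holds no read number, so the depth is unknown, no counting interval was given and the count test named in the study's methods was not applied. The study's legend for this RNA-seq counts the 2 libraries per group as experiments, but nothing in the labels states separate cultures. P-values therefore measure the spread between these libraries, which may be technical.

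From the deposited TPM, log2(TPM + 1) was taken for genes averaging 1 TPM or more (10127 genes) and entered 1 fit of 5 groups in limma (version 3.58.1, R version 4.3.3) with a mean-variance trend and 5 residual degrees of freedom. P-values were Benjamini-Hochberg adjusted over all genes tested, with a threshold of 0.05. The step was run on simulated data with independent normal noise and no scaling shift between libraries. That run cannot show how the fit behaves under such shifts. Gene positions came from GENCODE 44 mapped to GRCh37; matplotlib (version 3.10.9) served for the plots. The members and gene lists were chosen with earlier results of these data known. All members were named, with paralogs (1 is not reported here), ATF4, called genes of the other lists and the 5 genes of most similar pattern. The alternatives were a pseudocount of 0.1, no filter, a filter at 10 TPM, size factors, quantile normalization, removal of mitochondrial genes, no trend, a replicate block, fits of only the compared groups and leaving out each library.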

Additional observations from a re-analysis of the deposited data

How the results depend on the processing

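Libraries with the same replicate number shared no pattern of deviations across genes: these correlated at -0.0213 to 0.0229 over 10 pairs of groups, 0 of them over 0.1. Whether such libraries were prepared together cannot be read from this measure. With the replicate block, called members over the mean of the groups were 1 in place of 2 (CTH, adjusted p = 0.0508 by limma), and DDIT3 lost its call in LK (0.0562); members called in the single groups stayed at 1, 0, 1 and 0 (K, L, LK, KL), and all genes called were 119, 69, 151 and 127 against 164, 88, 203 and 138. Among members, no trend gave 0 calls in K. Removal of mitochondrial genes gave 2 in LK, 1 in KL and 1 in the 6 pairs. The 10 TPM filter, size factors and quantile normalization gave 1 in KL (ASNS, adjusted p 0.0432, 0.0271 and 0.0282 by limma). For the mean, a pseudocount of 0.1, no filter, the 10 TPM filter, which leaves out CTH, and no trend each gave 1. Leaving out 1 library gave 0 to 1 members in K, 0 in L, 1 in LK, 0 to 1 in KL, 1 to 2 for the mean, and 0 for dual against single and the pairs.

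Over all genes, no filter gave 51 calls in K, 37 in L, 61 in LK and 83 in KL, no trend gave 14, 22, 15 and 75, and fits of only the compared groups gave 59, 25, 57 and 66. In L, quantile normalization gave 151 and removal of mitochondrial genes 134. Leaving out 1 library gave 9 to 231 in K, 16 to 138 in L, 20 to 209 in LK and 49 to 167 in KL. The cause of these shifts was not tested. Scaling moved the balance: 54.3% of the K calls were higher, against 43.9% with quantile normalization and 33.5% without mitochondrial genes; in LK 58.6%, against 47.4% (size factors), 45.3% and 36.9%; in KL 46.4%, against 33.5% without mitochondrial genes. That removal shifted the median of all genes by -0.12 in K and LK and by -0.10 in KL. ASNS in LK was called in all 9 settings (adjusted p 0.000391 to 0.0492, limma) and all 10 left-out fits (0.00144 to 0.0205). ASNS in K was lost with no trend (0.0633). Of 2123 values of named genes under an alternative, 0 were called in the opposite direction, 55 lost and 17 gained a call, and 91 changed sign without a call. Fits of only the compared groups are the same as the fit reported for the mean of the groups.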

Other observations

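Among the targeted groups, 4 of the 10 enzymes (ASNS, PHGDH, PSAT1 and PYCR1) had all 4 libraries of K and LK below all 4 libraries of L and KL, which held for 2.34% of all genes tested, and 0 enzymes had the reverse order, which held for 3.85%. PHGDH was at 23.3 to 32.8 TPM in K and LK and at 42.6 to 50.4 TPM in L and KL, and PYCR1 at 45.4 to 58.0 and 63.6 to 81.9 TPM. This grouping of the libraries was noticed after the values were seen and is not a comparison of the design, so no test was made.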
